A study of Homo sapiens with 6 samples.

Results

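The RAS-MAPK pathway and its feedback genes were examined as 37 of the 15953 genes in the log2 CPM tables of EJ cells. The members were chosen by name: a gene belonged to the set when its symbol was on a list. The list held pathway components, genes induced by ERK that restrain the pathway, other genes induced by ERK, receptor ligands and MYEOV. It was drawn up with earlier results of these data known, so counts over it are a description and not a test of the pathway. All 37 were listed in every library. The cells were EJ, an established line of human bladder cancer, and their RNA was sequenced in 6 libraries, 3 for each of 2 groups. The shSTIL group was a stable line carrying a knockdown lentivirus against STIL, a centriole assembly protein, and the shNC group was a stable line carrying the negative control lentivirus. Both groups thus shared the EJ background and lentiviral transduction. The number of hairpins, clones and separate cultures behind the 3 libraries of a group was not given in the sources used here, so the P-values measure the spread between these libraries, which may be technical. The depth was 16352707, 16431238 and 16214770 reads in shNC replicates 1, 2 and 3, and 16901634, 16879587 and 16734469 reads in shSTIL replicates 1, 2 and 3. The totals of shNC replicates 2 and 3 were inferred from the spacing of their low log2 CPM values, and the other 4 rest on deposited estimated counts.

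In the RAS-MAPK pathway, a receptor tyrosine kinase that has bound its ligand recruits adaptors and exchange factors, which load RAS with GTP. RAS then activates RAF kinases, which phosphorylate MEK, which phosphorylates ERK, and ERK induces transcription factors as well as phosphatases and Sprouty and SPRED proteins that restrain the same cascade. EJ cells derive from the T24 line, which is known for an activating mutation of HRAS, and gene-level values do not separate the alleles.

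STIL, the targeted gene, lies at chr1:47250139-47314147 of GRCh38 on the minus strand. Its log2 CPM (library-scaled read counts, CPM, on the log2 scale) was 5.98, 6.10 and 6.01 in the shNC libraries and 4.05, 4.06 and 4.01 in the shSTIL libraries. The log2 fold change, shSTIL minus shNC, was -1.99 (limma adjusted p = 6.1e-12, standard error 0.052), which left 25.2% of the control level. Every library thus followed its label. Of the 10 urothelial and epithelial markers, 8 were listed in the tables, and KRT18 was the most abundant. Their summed level was 1129, 1072 and 1131 CPM in the shNC libraries and 967.5, 999.1 and 972.9 CPM in the shSTIL libraries. Of the abundant markers, KRT8 fell by 0.70 (limma adjusted p = 1.1e-09), KRT7 rose by 0.49 (limma adjusted p = 2e-06) and KRT18 did not pass (log2 fold change -0.05, limma adjusted p = 0.23). In contrast, EPCAM had 15 to 21 reads per library, GATA3 4 to 9, UPK2 0 to 5, CDH1 0 to 3 and KRT5 0 or 1. Several defining urothelial markers were therefore near 0. VIM made up most of the mesenchymal list, which summed to 1515, 1473 and 1497 CPM in the shNC libraries and 928.6, 941.7 and 950.1 CPM in the shSTIL libraries. VIM fell by 0.68 (limma adjusted p = 8.1e-10). The other genes of that list did not pass: CDH2 (log2 fold change -0.31, limma adjusted p = 0.28) and ZEB1 (-0.03, limma adjusted p = 0.75). Leukocyte markers (2 of 5 listed, LYZ the most abundant) summed to at most 0.779 CPM in any library, and endothelial markers (3 of 3 listed, CDH5 the most abundant) to at most 0.981 CPM. Fibroblast markers (2 of 6 listed) summed to 4.12, 2.64 and 4.08 CPM in the shNC libraries and 2.22, 2.03 and 1.94 CPM in the shSTIL libraries. COL1A1, the most abundant of them, had 59, 38 and 52 reads in shNC and 32, 21 and 25 reads in shSTIL libraries and fell by 0.96 (limma adjusted p = 0.002). The part of these marker differences in the results was not tested. In these bulk libraries, fewer cells of a type and less RNA per cell cannot be told apart.

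Of the 37 members, 27 were differentially expressed genes (DEGs, limma adjusted p under 0.01 over all genes), or 73.0%, where 47.1% of all genes were DEGs. Higher in shSTIL cells were 17 members, or 45.9%, against 23.5% of all genes, and lower were 10 members, or 27.0%, against 23.6% of all genes. Against a minimum change of 1.2-fold, 15 members were higher and 5 lower, where 3317 of all genes were DEGs. Genes with few reads were DEGs less often, so the nearer comparison was with the 11319 genes whose mean log2 CPM was 1 or more. Abundance above that cut was not matched, and its part in these shares was not tested. At that level were 34 members, of which 79.4% were DEGs against 61.9% of such genes. Of these 34 members, 50.0% were higher (30.5% of such genes) and 29.4% were lower (31.4% of such genes). Non-overlapping values of shNC and shSTIL were seen for 28 members, where 60.3% of all genes did not overlap, and for 27 of the 34 members at the higher level, where 75.7% did not. The median log2 fold change was 0.10 over the members (0.154 without shSTIL replicate 2) and 0.01 over all genes. Over the 34 members and all genes at the higher level it was 0.14 and -0.01. The median absolute log2 fold change was 0.44 over the members and 0.30 over all genes. Most members thus differed by amounts well under a doubling, and only 3 of the 34 reached an absolute log2 fold change of 1, as did 4.85% of the genes at that level. Below it were EREG, DUSP4 and SPRY1.

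The members were counted by kind, where 23.5% of all genes were higher and 23.6% lower. Of genes whose mean log2 CPM was 1 or more, as in 34 of the 37 members, 30.5% were higher and 31.4% lower. Among 16 pathway components, 8 rose, 6 fell and 2 did not pass the test (median log2 fold change 0.13). Among 4 receptor ligands, 1 rose, 2 fell and 1, EREG, did not pass (median -0.44 over the 3 ligands other than EREG). Among 10 feedback genes, 6 rose, 0 fell and 4 did not pass by limma (median 0.34). Over the 8 feedback genes whose mean log2 CPM was 1 or more, the median was 0.46. At an unadjusted limma p under 0.05, 1 feedback gene, SPRY1, was lower, and edgeR and DESeq2 called 0 lower. Among 6 ERK-induced transcription factors and targets, 2 rose, 1 fell and 3 did not pass (median 0.09). Differences between these kinds were not tested. The single remaining member, MYEOV, fell.

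**Figure D1:**
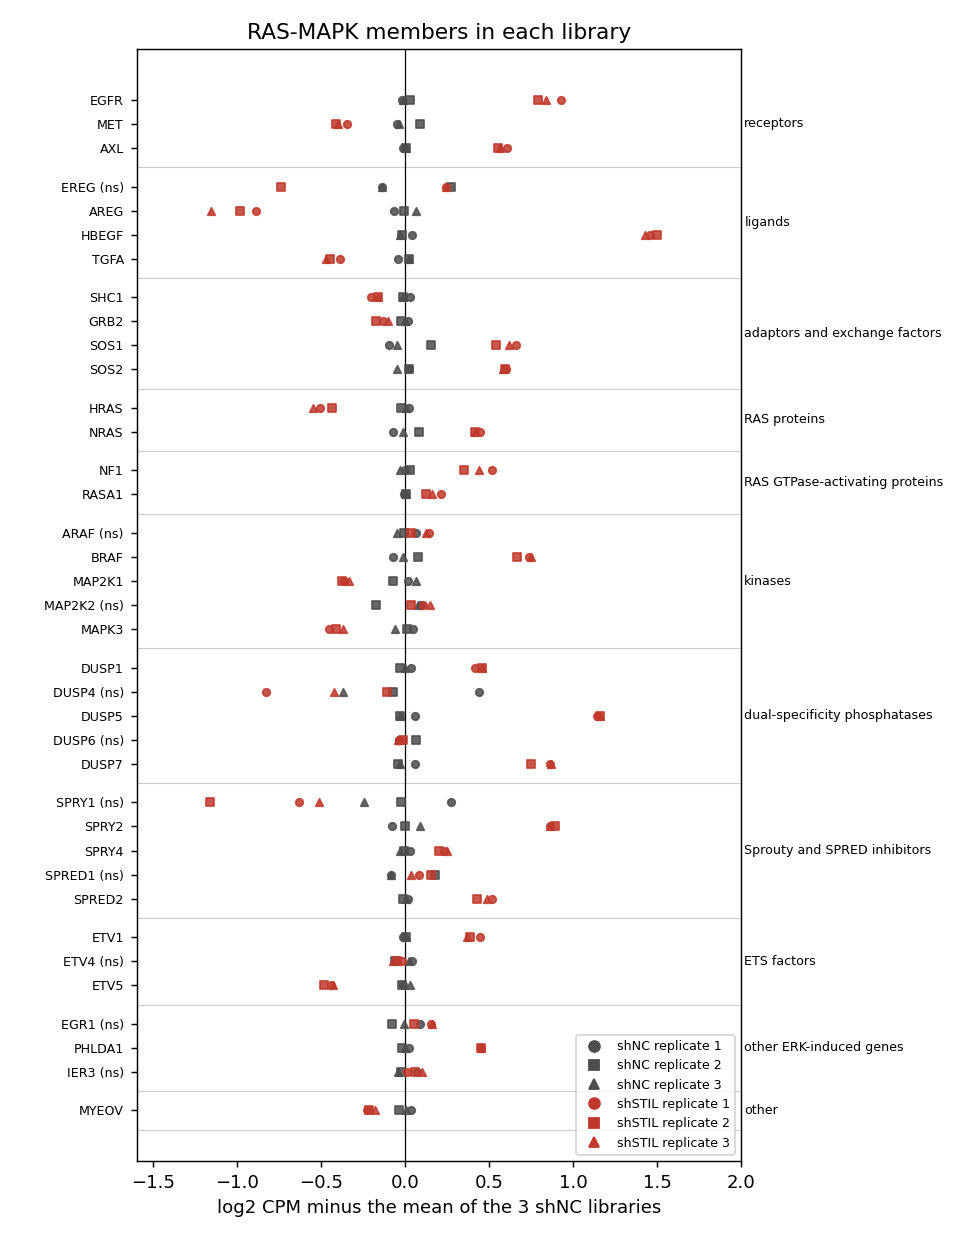
The plot shows, for each of the 37 members grouped by role, the log2 CPM of every library minus the mean of the 3 shNC libraries, with shNC in grey, shSTIL in red and replicates as symbols; "ns" marks genes that did not pass the test. HBEGF, DUSP5, SPRY2 and EGFR lie farthest to the right, and AREG lies far to the left with few reads.

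Among the receptors, EGFR (chr7:55019021-55211628 of GRCh38, plus strand), the receptor of the 4 ligands measured here, stood at a log2 CPM of 9.29, 9.34 and 9.30 in the shNC libraries and 10.24, 10.10 and 10.15 in the shSTIL libraries. EGFR RNA rose by a log2 difference of 0.85 (limma adjusted p = 5.6e-10, standard error 0.037), or 1.81-fold, and the lowest shSTIL library lay well above the highest shNC library. AXL, the receptor of GAS6, was at 8.58, 8.60 and 8.60 and then at 9.20, 9.15 and 9.16, a rise of 0.58 (limma adjusted p = 2e-09) with no overlap. MET, the receptor of hepatocyte growth factor, went the other way, with log2 CPM of 9.02, 9.16 and 9.03 in shNC and 8.72, 8.66 and 8.67 in shSTIL libraries. MET fell by 0.38 (limma adjusted p = 1.5e-06, standard error 0.038), and all shSTIL values lay below all shNC values. Against a minimum change of 1.2-fold, MET no longer passed the test (limma adjusted p = 0.018). That was the highest adjusted p over its 17 alternatives, and the lowest was 1.7e-21, by DESeq2.

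Per kilobase of the longest coding transcript, the order of the receptors differed between the groups. In shNC cells AXL (81.6 ± 0.543 CPM per kilobase, SD, n = 3) and MET (81.0 ± 4.30) did not differ beyond their spread, and EGFR was lower (64.7 ± 1.29). In shSTIL cells AXL (122 ± 2.05, SD, n = 3) and EGFR (117 ± 5.51) were close, and MET was the lowest (62.1 ± 1.37). The transcript in use in these cells was not measured, so such orders rest on annotated lengths.

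HBEGF, a membrane-anchored ligand of EGFR that is released by shedding, had the largest rise of all members. The gene lies at chr5:140332843-140346631 on the minus strand. It was counted with 3276, 3192 and 3080 reads in the shNC libraries and 9323, 9627 and 9086 reads in the shSTIL libraries. Its log2 CPM was 7.67, 7.61 and 7.60, and then 9.09, 9.13 and 9.06, a log2 difference of 1.47 (limma adjusted p = 1.9e-12, standard error 0.032), or 2.76-fold. The groups were far apart and the spread within each was small. By absolute log2 fold change HBEGF ranked 146 among the 11319 genes whose mean log2 CPM was 1 or more. AREG, amphiregulin, moved against HBEGF, with 83, 88 and 90 reads in the shNC libraries and 49, 46 and 40 in the shSTIL libraries. AREG fell by 1.01 on the log2 scale (limma adjusted p = 5.1e-05, standard error 0.15), and every shSTIL library lay below every shNC library, though at few reads. TGFA, transforming growth factor alpha, had log2 CPM of 6.90, 6.96 and 6.96 in shNC and 6.55, 6.49 and 6.47 in shSTIL libraries. TGFA fell by 0.44 (limma adjusted p = 2.1e-07, standard error 0.036), with no overlap. EREG, epiregulin, had 0 to 2 reads in any library, at or under the floor of 3 reads, so no fold is given.

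HBEGF also dominated the ligands per length. It made up 70.9% to 72.8% of the summed CPM per kilobase of the 4 ligands in the 3 shNC libraries and 90.5% to 91.1% in the 3 shSTIL libraries. TGFA made up 24.6% ± 0.85 and then 8.32% ± 0.26 (SD, n = 3), and AREG 3.77% ± 0.22 and then 0.84% ± 0.08. The sum itself was 116 ± 1.55 CPM per kilobase in shNC and 252 ± 5.30 in shSTIL cells (SD, n = 3), so the larger total was carried by HBEGF.

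**Figure D2:**
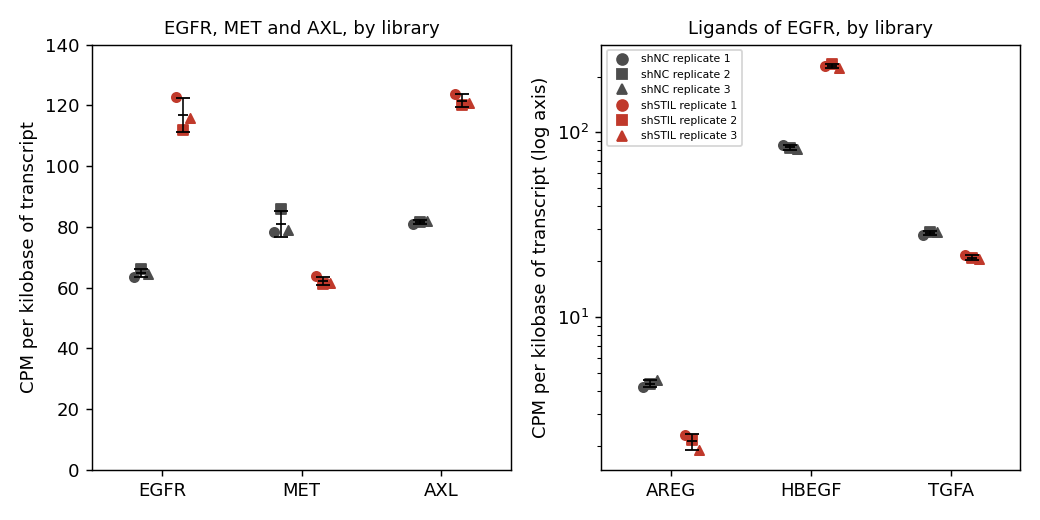
The left panel shows CPM per kilobase of EGFR, MET and AXL on a linear axis from 0 and the right panel AREG, HBEGF and TGFA on a log axis, with each library as a symbol (shNC grey, shSTIL red) and the mean and SD of 3 libraries as a bar. EREG is left out because it had 0 to 2 reads. HBEGF and EGFR are higher in shSTIL cells while MET, AREG and TGFA are lower.

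The promoters of a few members were read from RefSeq (GRCh38.p14), because the ligands moved in opposite directions and 2 ERK-induced genes, DUSP1 and EGR1, did not share the same outcome. RefSeq windows of 250 bases before to 50 after the start were matched for 31 members in 47 windows; DUSP4, DUSP5, ETV4, ETV5, IER3 and MYEOV had no window. The windows were searched on both strands for the CArG box bound by SRF, TGANTCA bound by AP-1, TGACGTCA bound by CREB, and CCGGAAGT bound by ETS factors. The CArG box was found in 1.29% of 35116 windows of all genes and in 1 of 47 member windows, that of EGR1. TGACGTCA was found in 1.85% of all windows and in 3 member windows, those of AREG, DUSP1 and NF1. TGANTCA was found in 7.71% of all windows and in 3 member windows (EGFR, SHC1 and SPRED2), and CCGGAAGT in 4.14% of all windows and in 3 member windows (NF1, NRAS and SHC1). The TGANTCA matches of EGFR, SHC1 and SPRED2 lay near alternative starts inside the genes. A match of EGFR, for example, was at chr7:55109703-55109709, where the gene begins at 55019021. None of these motifs overlaps another by its letters except that TGANTCA and TGACGTCA share their first 3 and last 3 letters. The 150 bases before the start are given for HBEGF (chr5:140346604-140346753, minus strand), AREG (chr4:74444986-74445135, plus strand), DUSP1 (chr5:172771196-172771345, minus strand) and EGR1 (chr5:138465329-138465478, plus strand), 5′ to 3′ on the gene's strand, with the matched letters in capitals.
HBEGF: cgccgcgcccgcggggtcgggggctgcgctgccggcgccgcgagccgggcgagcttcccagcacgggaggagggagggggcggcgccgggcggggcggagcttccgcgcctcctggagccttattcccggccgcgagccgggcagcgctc
AREG: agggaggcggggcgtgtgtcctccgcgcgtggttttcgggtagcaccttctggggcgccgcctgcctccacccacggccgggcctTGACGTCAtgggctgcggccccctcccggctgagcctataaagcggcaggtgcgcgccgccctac
DUSP1: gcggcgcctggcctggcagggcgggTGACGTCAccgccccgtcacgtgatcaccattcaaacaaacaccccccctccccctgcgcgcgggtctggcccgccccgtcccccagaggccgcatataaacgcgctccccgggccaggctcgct
EGR1: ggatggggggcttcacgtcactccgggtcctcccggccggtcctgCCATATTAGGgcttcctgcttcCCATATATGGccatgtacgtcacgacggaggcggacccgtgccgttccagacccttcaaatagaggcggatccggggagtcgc
The AREG match begins 65 bases and the DUSP1 match 125 bases before the start, and the CArG boxes of EGR1 begin 105 and 83 bases before it. AREG fell and DUSP1 rose with the same motif in the window. HBEGF, with the largest rise, held none of the 4 motifs in its window. A match is a description of the letters and was not tested as a binding site.

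Among the adaptors and exchange factors, the exchange factors rose and the adaptors fell by small amounts. SOS1, which loads RAS with GTP, was at a log2 CPM of 5.53, 5.78 and 5.58 in shNC and 6.29, 6.17 and 6.25 in shSTIL libraries. SOS1 rose by 0.61 (limma adjusted p = 1.2e-06, standard error 0.060), with shNC replicate 2 the highest control but still below every shSTIL library. SOS2, its paralog, was at 5.39, 5.39 and 5.32 and then at 5.97, 5.96 and 5.95, a rise of 0.59 (limma adjusted p = 5.6e-08) with no overlap. SHC1, an adaptor that links receptors to GRB2, fell by 0.18 (limma adjusted p = 0.00024), from 10.14, 10.10 and 10.10 to 9.91, 9.95 and 9.95. GRB2, the adaptor that carries SOS proteins to receptors, fell by 0.14 (limma adjusted p = 0.0029), from 7.24, 7.20 and 7.22 to 7.09, 7.05 and 7.12. These falls were the least secure: SHC1 did not pass after quantile normalization (log2 fold change -0.03), and GRB2 did not pass under 9 of 17 alternatives, among them the fits without shNC replicate 1 or 3 and without shSTIL replicate 1 or 2 (log2 fold changes from -0.15 to -0.12 over the libraries left out).

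The RAS genes moved in opposite directions. HRAS (chr11:532242-537287, minus strand) had log2 CPM of 6.54, 6.49 and 6.52 in the shNC libraries and 6.01, 6.08 and 5.97 in the shSTIL libraries. HRAS fell by 0.50 (limma adjusted p = 1.7e-07, standard error 0.040), with a clear gap between the groups. NRAS had log2 CPM of 7.14, 7.30 and 7.20 in shNC and 7.66, 7.63 and 7.63 in shSTIL libraries. NRAS rose by 0.42 (limma adjusted p = 7.3e-07, standard error 0.039), again with no overlap. Per length, HRAS was 68.9% ± 1.59 (SD, n = 3) of the sum of HRAS and NRAS in shNC cells and 53.9% ± 1.08 in shSTIL cells. Reads of RAS genes can be shared between paralogs by the counting, so their values are uncertain where the sequences are alike.

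The GTPase-activating proteins, which switch RAS off, both rose. NF1, neurofibromin, was at a log2 CPM of 7.44, 7.47 and 7.41 in shNC and 7.96, 7.79 and 7.88 in shSTIL libraries, a rise of 0.44 (limma adjusted p = 6.5e-07) without overlap. RASA1, p120 RasGAP, was at 6.59, 6.60 and 6.60 and then at 6.81, 6.72 and 6.76, a rise of 0.17 (limma adjusted p = 0.0012) without overlap. RASA1 lost its call without shNC replicate 1, 2 or 3 or without shSTIL replicate 3, with log2 fold changes from 0.14 to 0.19 as each of the 6 libraries was left out in turn.

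The kinases did not move together. BRAF, a RAF kinase, had log2 CPM of 5.92, 6.07 and 5.98 in the shNC libraries and 6.73, 6.66 and 6.74 in the shSTIL libraries. BRAF rose by 0.72 (limma adjusted p = 1.5e-08, standard error 0.045), or 1.65-fold, with no overlap. ARAF, another RAF kinase, did not pass the test, with a log2 fold change of 0.10 (95% interval 0.00 to 0.20, limma adjusted p = 0.083) and overlapping groups. MAP2K1, which encodes MEK1, fell by 0.36 (limma adjusted p = 1.3e-05) from 6.01, 5.92 and 6.06 to 5.63, 5.62 and 5.66, but did not pass against a minimum change of 1.2-fold. MAP2K2, which encodes MEK2, did not pass (log2 fold change 0.10, 95% interval -0.03 to 0.23, limma adjusted p = 0.2), and shNC replicate 2 stood apart at 7.33 against 7.60 and 7.58 in the other shNC libraries. Without that library the log2 fold change of MAP2K2 was 0.008. MAPK3, which encodes ERK1, fell by 0.41 (limma adjusted p = 9.9e-07, standard error 0.040) from 6.85, 6.81 and 6.74 to 6.35, 6.39 and 6.43. Per length, MAP2K2 exceeded MAP2K1 in every library, and MAP2K1 made up 15.2% ± 0.85 (SD, n = 3) of their sum in shNC and 11.5% ± 0.27 in shSTIL cells. ARAF likewise exceeded BRAF, at 77.3% ± 1.45 (SD, n = 3) of their sum in shNC and 68.9% ± 0.28 in shSTIL cells.

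**Figure D3:**
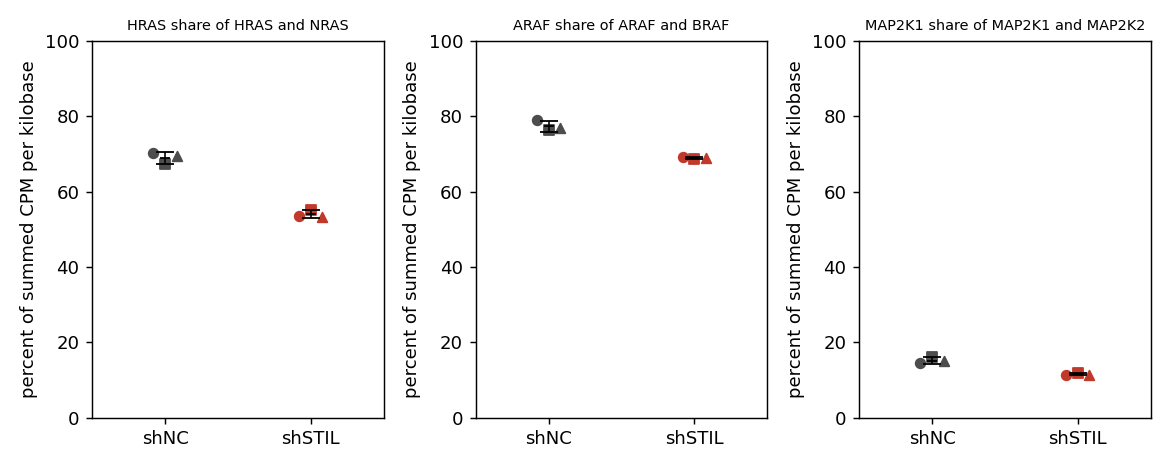
Each panel shows the share of a gene in the summed CPM per kilobase of a pair, on an axis from 0 to 100 percent, with each library as a symbol and the mean and SD of 3 libraries as a bar. The share of HRAS within HRAS and NRAS is 68.9% in shNC and 53.9% in shSTIL cells, and the shares of ARAF and MAP2K1 are also lower in shSTIL cells.

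Of the dual-specificity phosphatases, which dephosphorylate MAP kinases, 3 of 5 rose. Higher were 23.5% of all genes and 30.5% of genes whose mean log2 CPM was 1 or more. DUSP5 (chr10:110497838-110511544, plus strand), a nuclear phosphatase of ERK, had 2457, 2349 and 2282 reads in the shNC libraries and 5542, 5661 and 5574 reads in the shSTIL libraries. DUSP5 rose by a log2 difference of 1.16 (limma adjusted p = 1.4e-11, standard error 0.033), or 2.23-fold, with tight values within each group. DUSP7, a cytoplasmic phosphatase of ERK, was at a log2 CPM of 4.57, 4.47 and 4.48 in shNC and 5.37, 5.26 and 5.38 in shSTIL libraries, a rise of 0.83 (limma adjusted p = 3.7e-08). DUSP1, an immediate early phosphatase of several MAP kinases, was at 8.19, 8.12 and 8.15 and then at 8.57, 8.61 and 8.61, a rise of 0.45 (limma adjusted p = 5.3e-08). The groups of these 3 genes did not overlap. DUSP6, the cytoplasmic phosphatase of ERK that is widely used as a readout of ERK activity, did not pass the test. Its log2 CPM was 5.70, 5.80 and 5.70 in shNC and 5.70, 5.72 and 5.69 in shSTIL libraries, a log2 fold change of -0.03 (95% interval -0.13 to 0.06, limma adjusted p = 0.59) whose sign turned under median centring (0.011) and without shNC replicate 2 (0.003). DUSP4 had 1 to 5 reads per library and did not pass (limma adjusted p = 0.23).

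Of the Sprouty and SPRED inhibitors, which act on the pathway at and above RAF, 3 of 5 rose. The shares higher were 23.5% of all genes and 30.5% of genes whose mean log2 CPM was 1 or more. SPRY2 had log2 CPM of 6.96, 7.04 and 7.13 in the shNC libraries and 7.90, 7.93 and 7.90 in the shSTIL libraries. SPRY2 rose by 0.87 (limma adjusted p = 8.8e-10, standard error 0.040), or 1.83-fold, with no overlap. SPRED2 was at 6.70, 6.67 and 6.69 and then at 7.20, 7.11 and 7.17, a rise of 0.48 (limma adjusted p = 7.2e-08). SPRY4 rose less, by 0.23 (limma adjusted p = 2.5e-05), from 8.26, 8.22 and 8.20 to 8.46, 8.43 and 8.48, and did not pass against a minimum change of 1.2-fold. SPRED1 did not pass (log2 fold change 0.09, 95% interval -0.05 to 0.24, limma adjusted p = 0.26), and shNC replicate 2, at 5.70, lay above all 3 shSTIL libraries. Without that library the log2 fold change of SPRED1 was 0.18, and it ranged from 0.048 to 0.18 over the libraries left out in turn. SPRY1 had 21, 17 and 14 reads in the shNC libraries and 11, 7 and 12 in the shSTIL libraries. Its log2 fold change was -0.77 (limma adjusted p = 0.018, standard error 0.25), so it did not pass although the groups did not overlap. Per length, SPRY2 (48.6 ± 2.84 CPM per kilobase, SD, n = 3) was below SPRY4 (60.7 ± 1.37) in shNC cells and above it in shSTIL cells (88.9 ± 0.927 against 71.1 ± 1.18).

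The ETS factors of the PEA3 group, transcription factors induced by ERK signalling, differed among themselves. ETV1 rose by 0.40 (limma adjusted p = 6.6e-07) from 6.21, 6.23 and 6.23 to 6.67, 6.61 and 6.59. ETV5 fell by 0.45 (limma adjusted p = 1.9e-07) from 6.51, 6.50 and 6.55 to 6.08, 6.04 and 6.09. ETV4 did not pass, with a log2 fold change of -0.05 (95% interval -0.12 to 0.03, limma adjusted p = 0.3) and overlapping groups. It ranged from -0.074 (without shNC replicate 2) to -0.029 (without shNC replicate 1) over the libraries left out, and was -0.004 under median centring. Thus ETV1 and ETV5 each showed no overlap, in opposite directions.

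Of the other ERK-induced genes, only PHLDA1 passed the test by limma at this threshold. PHLDA1, a pleckstrin homology-like protein, was at a log2 CPM of 8.40, 8.36 and 8.38 in shNC and at 8.83 in each shSTIL library, a rise of 0.45 (limma adjusted p = 1.8e-08). EGR1, an immediate early transcription factor, was at 10.66, 10.49 and 10.56 and then at 10.72, 10.62 and 10.73. Its log2 fold change of 0.12 did not pass (95% interval 0.02 to 0.22, limma adjusted p = 0.044) and the groups overlapped, but it passed under quantile normalization (0.26), median centring, edgeR and DESeq2. IER3, an early response gene linked to cell survival, did not pass either (log2 fold change 0.05, 95% interval -0.02 to 0.13, limma adjusted p = 0.23). It ranged from 0.034 (without shNC replicate 3) to 0.088 (without shNC replicate 1) over the libraries left out, and was 0.117 under quantile normalization and 0.098 under median centring. MYEOV, a gene named for its overexpression in myeloma, fell by 0.21 (limma adjusted p = 9.4e-05) from 7.59, 7.52 and 7.56 to 7.33, 7.34 and 7.38, and did not pass against a minimum change of 1.2-fold.

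Within the groups the members were tight. For the 34 members whose mean log2 CPM was 1 or more, the median SD between replicates was 0.046 in shNC and 0.037 in shSTIL cells, where the genes at that level had 0.065 and 0.055. The members were not compared with genes of like abundance, so the part of read depth in these SDs was not tested. Among DEGs of the set, the largest SD within a group was 0.14 on the log2 scale, for AREG in shSTIL cells. Of the 34 members, MAP2K2 and SPRED1, which did not pass the test, had larger SDs in shNC cells (0.153 and 0.149). With 3 libraries against 3, the exact two-sided permutation test of a gene can give no p below 0.1, the value that any gene without overlap has, so it adds nothing for such members.

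Other genes of the pathway were taken from a list of 92 genes, of which 90 were in the tables. Of these, 33 rose (36.7%, against 23.5% of all genes), 22 fell (24.4%, against 23.6%) and 35 did not pass the test, and their median log2 fold change was 0.12, against 0.01 over all genes. Of the 72 whose mean log2 CPM was 1 or more, 45.8% rose and 29.2% fell, against 30.5% and 31.4% of all genes at that level. Among 12 other receptors, 1 rose and 6 fell, whereas among 11 substrates of ERK 6 rose and 2 fell, and among 10 other ERK-induced genes 6 rose and 0 fell. RAS family members and exchange factors held 3 falls and 0 rises among 7 genes. Each of these counts of 0 was also 0 at an unadjusted limma p under 0.05 and by edgeR and DESeq2. Of 9 other phosphatases 4 rose and 2 fell, of 8 GTPase-activating proteins 4 rose and 2 fell, and of 11 kinases and scaffolds 4 rose and 4 fell. Of 8 other ligands and sheddases 3 rose and 2 fell, and of 10 other adaptors and receptor regulators 4 rose and 1 fell. A further role on the list, Sprouty, SPRED and related regulators, held SPRY3, SPRED3, IL17RD and SPSB1. Of these 4, 1 rose (SPSB1, by 0.38), 0 fell and 3 did not pass by limma, so neither the Sprouty nor the SPRED gene among them rose. At an unadjusted limma p under 0.05 1 of these 4 was lower, and edgeR and DESeq2 called 0 lower. That gene, SPRY3, differed by -0.50 on the log2 scale, shSTIL minus shNC (limma adjusted p = 0.019), and its groups did not overlap.

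Among DEGs of that list whose mean log2 CPM was 1 or more, the 5 largest rises were those of RPS6KA2, ETS1, ERRFI1, DUSP8 and DUSP16. RPS6KA2, a ribosomal S6 kinase activated by ERK, rose by 2.30 (limma adjusted p = 1.8e-07), from log2 CPM of -0.20, 0.14 and 0.25 to 2.30, 2.36 and 2.44. It had only 12, 16 and 17 reads in the shNC libraries, against 82, 86 and 90 in the shSTIL libraries, and reached the mean log2 CPM of 1 through the shSTIL libraries. ETS1, a transcription factor phosphorylated by ERK, rose 2.3-fold (limma adjusted p = 1.3e-11), from log2 CPM of 7.98, 8.08 and 7.98 to 9.23, 9.19 and 9.21. ERRFI1, a feedback inhibitor of EGFR, rose by 1.15 (limma adjusted p = 6.1e-12), from 8.98, 9.03 and 8.98 to 10.14, 10.15 and 10.15. The phosphatases DUSP8 and DUSP16, which act mainly on JNK and p38, rose 2.19-fold and 2.08-fold (limma adjusted p = 9.9e-08 and 1.5e-09). SRF, which binds the CArG box, was not among these 5 and was named after its values were seen; it rose by 0.61 (limma adjusted p = 3.3e-09). The largest falls at that level were in ERBB3, a receptor of neuregulins (-1.45), IGF1R, the receptor of insulin-like growth factors (-1.23), KSR2, a scaffold of RAF and MEK (-1.04), and FGFR4, a fibroblast growth factor receptor (-0.74). Thus EGFR rose while ERBB3 fell.

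**Figure D4:**
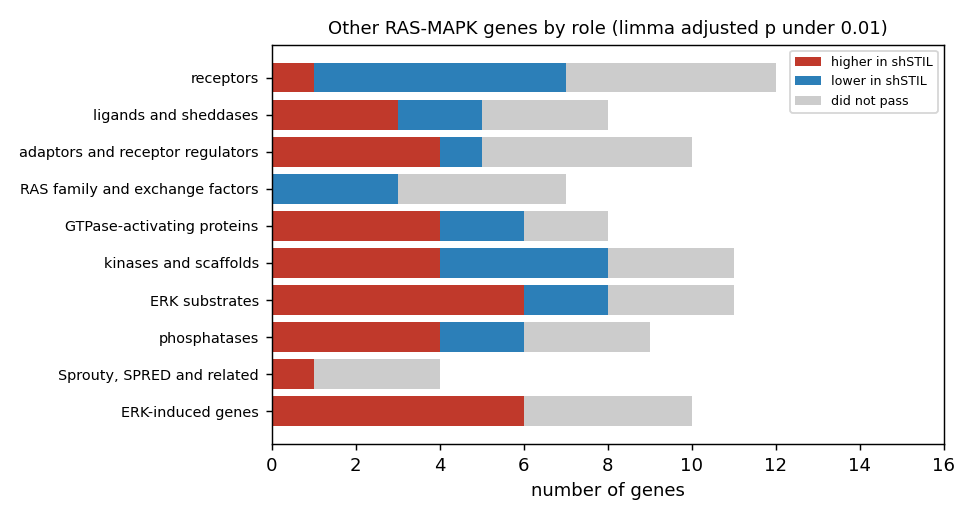
Bars show, for each role on the list of other pathway genes, the number of genes that were higher (red), lower (blue) or did not pass the test (grey), out of 90 in the tables. Receptors hold 6 falls and 1 rise, whereas ERK substrates hold 6 rises and 2 falls.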

How the data were processed

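RNA-seq libraries of EJ cells (3 shNC, 3 shSTIL) were compared by the sample labels. Sequencing by the authors was on a BGISEQ-500; Bowtie2 mapped the filtered reads to transcripts, RSEM gave the estimated reads of each gene, and the submitters' processing notes name hg38. The deposited log2 CPM of 15953 genes, which the authors computed with edgeR, covered all 6 libraries. The deposited estimated counts from RSEM covered 4 libraries and set the scale for recovering their reads from the log2 CPM. For shNC replicates 2 and 3 the scale was inferred from the spacing of low log2 CPM values. In all libraries 88.1% to 88.4% of recovered values were whole within 0.02 reads. The log2 CPM used a prior count of 2, so fold changes of genes with few reads are understated. The column headings name siRNA where the labels name shRNA; libraries were assigned by the labels.

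Groups were compared with limma 3.58.1 (eBayes, trend on the mean) under R 4.3.3 over all genes with Benjamini-Hochberg adjustment, and single genes also with an exact two-sided permutation test in scipy 1.17.1. edgeR 4.0.16 and DESeq2 1.42.0 on recovered reads rounded to whole numbers were alternatives; edgeR called 7829 and DESeq2 6782 genes, where limma called 7509. The fits were tested on simulated data. Transcript lengths and gene coordinates are those of GENCODE 29 (GRCh38). Figures were drawn with matplotlib 3.10.9. Intervals are those of limma and floors cover counting error only.

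The genes named are the 37 members and, from the list of other pathway genes, 5 DEGs with the largest rise and 5 with the largest fall, taken where the mean log2 CPM was 1 or more and shNC and shSTIL values did not overlap. A gene that this rule names is not reported here. SRF, SPRY3, SPRED3, IL17RD and SPSB1 of that list were named outside the rule, after their values were seen. The members and lists were chosen with earlier results of these data known.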

Additional observations from a re-analysis of the deposited data

How the results depend on the processing

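Of 27 DEGs among the members, 20 kept their direction and call under all 17 alternatives, and 7 lost the call under at least one of them without a change of sign. Against a minimum change of 1.2-fold (limma treat) these 7 (MAP2K1, RASA1, SPRY4, SHC1, GRB2, MET and MYEOV) did not pass, which left 15 members higher and 5 lower. At that setting 17 genes of the wider list were higher and 12 lower, and 3317 of all genes were DEGs. With each gene's own variance 4784 genes were DEGs, and RASA1 and GRB2 lost the call. With a library left out in turn, 4900 to 5638 genes were DEGs, as fewer libraries entered the fit. Over these fits, 16 to 17 members were higher and 9 to 10 lower. In the wider list 25 to 29 genes were higher and 16 to 17 lower, and STIL ranged from -2.01 to -1.96. The median member log2 fold change ranged from 0.094 to 0.154, the highest without shSTIL replicate 2. DUSP6 turned to 0.011 under median centring and ranged from -0.051 to 0.003 with a library left out, positive without shNC replicate 2. The fitted value of EREG, which at 0 to 2 reads is no estimate of a fold, ranged from -0.25 to 0.24 with a library left out and was -0.33 with a prior count of 0.5. It was positive without shNC replicate 2 (0.05) and without shSTIL replicate 2 (0.24). The causes of these changes were not tested. With the replicate block, 6898 genes were DEGs, and 17 members were higher and 10 lower; the replicate numbers share only a number, since the deviations of same-numbered libraries correlated at -0.12, -0.06 and -0.11. Few reads limit what can be said of EREG, DUSP4 and SPRY1.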
